A study of Mus musculus with 3 samples.

Results

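The lysyl oxidase and lysyl hydroxylase genes were examined in hepatic stellate cells (HSCs) of the mouse, which store vitamin A in the healthy liver and become matrix-producing myofibroblasts in fibrosis. The members were chosen by symbol. They are the 5 lysyl oxidase genes *Lox*, *Loxl1*, *Loxl2*, *Loxl3* and *Loxl4* and the 3 lysyl hydroxylase genes *Plod1*, *Plod2* and *Plod3*. All 8 were found among the 30595 gene symbols listed once in each of the 2 deposited tables, and the mean of each reached 1 TPM in every comparison. HSCs came from wild-type female C57BL/6 mice more than 24 weeks old and were purified on a Nycodenz density gradient, and how many mice went into each culture is not given in the labels. All cells were kept in medium with 0.2% FBS for 24 h. They were then left untreated, stimulated with recombinant human FGF18 at 100 ng/mL, or stimulated with TGFβ1 at 1 ng/mL, each for a further 24 h. The labels list 1 record per condition. The paper states triplicate samples but not whether they came from separate isolations.

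Lysyl hydroxylases act inside the cell, in the endoplasmic reticulum, and add a hydroxyl group to lysines of newly made collagen chains. Lysyl oxidases are secreted copper enzymes that turn lysine and hydroxylysine side chains of collagen and elastin into aldehydes, which then join into covalent cross-links. Whether the lysine was hydroxylated beforehand sets the kind of cross-link that forms. In the fibrotic liver, cross-links make the collagen scar stiffer and harder for proteases to remove, and myofibroblasts derived from stellate cells are a main source of that collagen.

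A short stretch with metal-binding residues is shown here for each family. In lysyl oxidases, histidines that hold the copper ion lie in one short stretch of the catalytic domain. Its coding sequence, read 5′ to 3′ from the longest coding transcript in GENCODE M21 (GRCm38), is given below for the 4 members *Loxl1* to *Loxl4*, with the histidine codons in capitals. The sequence of *Lox* is not shown or compared here.
*Loxl1*: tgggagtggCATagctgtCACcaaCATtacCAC
*Loxl2*: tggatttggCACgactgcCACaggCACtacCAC
*Loxl3*: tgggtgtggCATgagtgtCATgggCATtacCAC
*Loxl4*: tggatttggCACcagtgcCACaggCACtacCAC
The stretch was found by a search pattern that requires histidine at these 4 positions, so their presence, and part of the likeness below, was set in advance. In each of the 4 sequences the stretch crosses an exon boundary after base 23 of 33. Among these 4, *Loxl2* and *Loxl4* were the closest pair, with 31 of 33 bases in common, and *Loxl1* and *Loxl4* the most distant, with 21. The stretches span chr9:58293720-58294381 on the minus strand (*Loxl1*, exons 3 and 4), chr14:69682316-69689037 on the plus strand (*Loxl2*, exons 10 and 11), chr6:83049995-83050125 on the plus strand (*Loxl3*, exons 10 and 11) and chr19:42598807-42599899 on the minus strand (*Loxl4*, exons 11 and 12), introns included.

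Lysyl hydroxylases hold iron instead, and 2 of the residues that bind it, a histidine and an aspartate, sit close together near the C-terminal end. Their codons are in capitals.
*Plod1*: cccCACcatGACgcctctaccttcacc
*Plod2*: cccCACcacGATgcctcaacctttacc
*Plod3*: ccaCACcatGACtcgtccaccttcact
The 27 bases lie in 1 exon of each gene, at chr4:147913259-147913285 on the minus strand (*Plod1*, exon 18), chr9:92606824-92606850 on the plus strand (*Plod2*, exon 19) and chr5:136994993-136995019 on the plus strand (*Plod3*, exon 18). The stretch was found by a search pattern that fixed 8 of its 9 residues, so their identity was set in advance. *Plod1* and *Plod2* share 23 bases and also the residue left free. *Plod2* and *Plod3* share 19 bases and differ in that residue.

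Each deposited table gives the authors' mean level of every gene in untreated cells and in cells with 1 stimulus, as TPM, a length-scaled share of a library's transcripts, which corrects for both depth and gene length. Levels of different genes can therefore be set side by side. The tables hold no values per library, so the spread between samples and the reads behind a value cannot be read from them. The results are a description of group means with no test, and no order between 2 levels can be called larger than the replicate error. Folds are ratios of the mean TPM. Log2 ratios were taken after adding 1 TPM to each mean, which draws those of low genes toward 0. In place of an error, each ratio is set beside the ratios of all genes at a like level (1 to 10, 10 to 100, or 100 TPM and more), by the mean of both groups unless stated. *Lox* and *Loxl2* change band with their own TGFβ1 level, so for these the band of the untreated level is used there, an alternative added with the values known. Both stimuli share a single untreated group.

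The labelled cell type was checked first. The stellate cell markers *Lrat*, the enzyme that stores retinol, and *Colec11*, a secreted lectin, were present in untreated cells at 151 and 96.2 TPM. Both were lower with either stimulus. *Lrat* was at 61.6 TPM with FGF18 and 43.9 TPM with TGFβ1, and *Colec11* at 12.5 and 7.44 TPM. Of the 8 stellate markers these were the 2 lower by 2-fold with each stimulus, and *Pdgfrb*, a growth factor receptor, was the 1 higher, with TGFβ1 (66.3 and 139 TPM). For this and the marker counts below, of all genes whose mean reached 1 TPM, 4.26% were higher by 2-fold with TGFβ1 and 4.39% lower. With FGF18 these shares were 2.34% and 5.77%. The stellate list summed to 736 TPM untreated, 521 TPM with FGF18 and 504 TPM with TGFβ1. Endothelial markers were also present. The 8 of them summed to 354 TPM in untreated cells, 263 TPM with FGF18 and 151 TPM with TGFβ1, and 5 of the 8 were lower by 2-fold or more with TGFβ1 and none with FGF18. *Fcgr2b*, an Fc receptor of sinusoidal endothelium, went from 143 TPM in untreated cells to 101 TPM with FGF18 and 13.3 TPM with TGFβ1, the largest drop in TPM of the list. *Pecam1*, found on endothelium in general, was at 103, 77.7 and 96.8 TPM, and *Stab2*, a scavenger receptor of sinusoidal endothelium, was at 5.48, 7.29 and 9.08 TPM. The 8 macrophage markers summed to between 50.6 and 91.5 TPM, mostly *Cd68*. The 8 hepatocyte markers summed to between 18.2 and 20.6 TPM, the 6 biliary markers to between 9.54 and 12.3 TPM (*Krt19* was the 1 past 2-fold, at 0.728 TPM untreated and 2.76 TPM with TGFβ1), and the 8 markers of vascular smooth muscle and portal fibroblasts to between 91.5 and 153 TPM, with 1 higher and 2 lower by 2-fold with TGFβ1 and 2 lower with FGF18. None of these markers was listed at 0. The part of these cell types in the results below was not tested, and fewer cells of a type cannot be told apart from less RNA per cell.

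In untreated HSCs, *Plod1* and *Loxl2* had the highest levels of the 2 families. *Plod1*, which hydroxylates lysines within the collagen triple helix, stood at 87.4 TPM, above 90.5% of all genes at 1 TPM or more. *Loxl2*, a lysyl oxidase with scavenger receptor domains that acts on type IV collagen among others, stood at 68.9 TPM. Between these and the low members lay *Plod2* (45.3 TPM), *Plod3* (36.7 TPM), *Loxl3* (24.5 TPM) and *Loxl4* (19.8 TPM). *Lox*, the founding member and main cross-linker of fibrillar collagen, and *Loxl1*, known for its work on elastic fibers, were lowest at 4.73 and 4.07 TPM. The order of *Lox* and *Loxl1*, and that of *Loxl3* and *Loxl4*, rests on small gaps whose error is unknown.

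**Figure D1:**
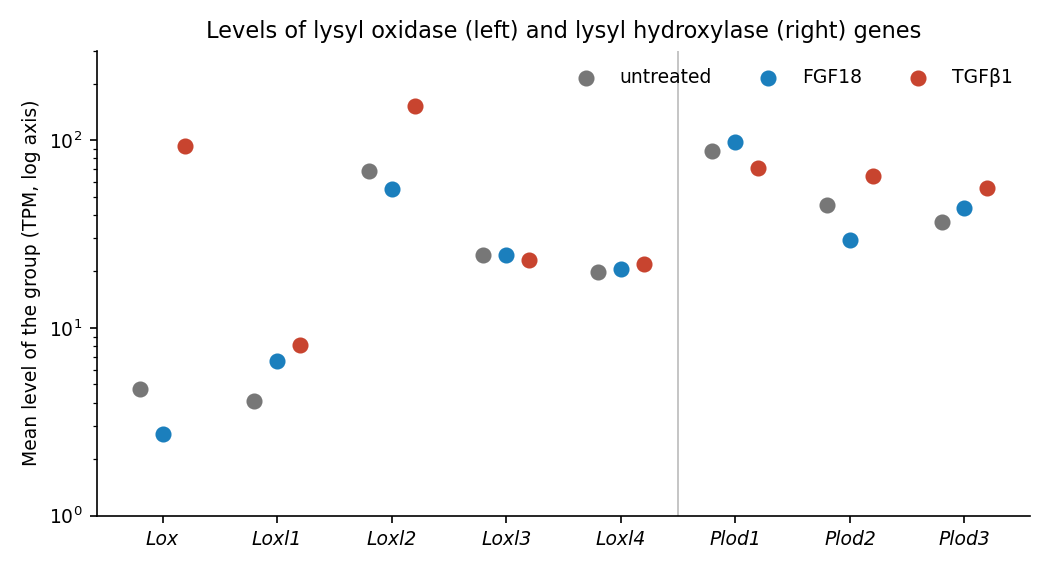
Mean level of each lysyl oxidase and lysyl hydroxylase gene in untreated, FGF18-treated and TGFβ1-treated HSCs, in TPM on a log axis. Each point is the authors' mean of a group, with no error. *Lox* was at 4.73 TPM untreated, 2.71 TPM with FGF18 and 93.2 TPM with TGFβ1, while the 3 points of *Loxl3* and of *Loxl4* nearly coincide.

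With TGFβ1, *Lox* and *Loxl2* were higher than in untreated HSCs by more than 2-fold, and the other 6 members were not. None was lower by 2-fold. Among all 21256 genes whose mean reached 1 TPM, 4.26% were higher by that much and 4.39% were lower. The members had a median log2 ratio of 0.55, against -0.0035 over all those genes. The study asked here what each factor does to stellate cells, TGFβ being the classic inducer of matrix genes.

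*Lox* went from 4.73 TPM in untreated cells to 93.2 TPM with TGFβ1, 19.7-fold higher, with a log2 ratio of 4.04. This took it from next to last of the 8 members to the level just below *Loxl2*. Of the 11381 genes at 1 to 10 TPM in untreated cells, 0.0176% had a ratio as high, *Lox* itself included. *Lox* lies on chromosome 18 from 52516067 to 52529867 in GRCm38, where GENCODE places AC161119.1 on the opposite strand.

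*Loxl2* went from 68.9 to 153 TPM with TGFβ1, 2.22-fold higher, with a log2 ratio of 1.14. It was the most abundant of the 8 members in these cells. Of the 7878 genes at 10 to 100 TPM in untreated cells, 0.774% were as far above untreated. *Loxl2* lies on chromosome 14 from 69609068 to 69695834. In GENCODE it overlaps *Gm27177* and *Gm37513* on the opposite strand, and the counting is not stated to use strand.

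*Loxl1* went from 4.07 to 8.09 TPM with TGFβ1, 1.99-fold higher. Its log2 ratio of 0.84 is damped by the added 1 TPM, and 8.44% of the 11636 genes with a mean of 1 to 10 TPM were as far above untreated (4.87% with bands set by the untreated level). *Loxl3*, a relative of *Loxl2* needed for palate and spine formation in mice, had 24.5 TPM untreated and 23.1 TPM with TGFβ1. *Loxl4*, the remaining member with scavenger receptor domains, was at 19.8 and 21.9 TPM. Both log2 ratios, -0.08 and 0.14, lay between the lower and upper quartiles of genes at 10 to 100 TPM (-0.20 and 0.22). *Loxl4* was thus 1.11-fold above untreated where *Loxl2*, its closest match among the 4 copper-site sequences above, was 2.22-fold above.

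The lysyl hydroxylases differed less with TGFβ1, and not in a single direction. *Plod2*, which hydroxylates the lysines at the ends of collagen chains and is linked to hard-to-degrade fibrotic collagen, went from 45.3 to 64.9 TPM, a log2 ratio of 0.51. *Plod3*, which in addition attaches sugars to hydroxylysine, went from 36.7 to 55.4 TPM, a log2 ratio of 0.58. *Plod1* went the other way, from 87.4 to 71.5 TPM, a log2 ratio of -0.29. Each of the 3 lay within the 5th to 95th percentiles of genes at 10 to 100 TPM (-0.63 and 0.66). At 10 to 100 TPM, 6.66% of genes were as far above untreated as *Plod3* and 8.66% as *Plod2*, and 17.9% were as far below as *Plod1*. With bands set by the untreated level the 95th percentile was 0.5786, just under the ratio of *Plod3* (0.5817). *Plod3* overlaps *Znhit1*, *Loxl3* overlaps *Htra2* and *Plod2* overlaps *Gm38391*, each on the opposite strand, so reads of these pairs may be mixed.

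**Figure D2:**
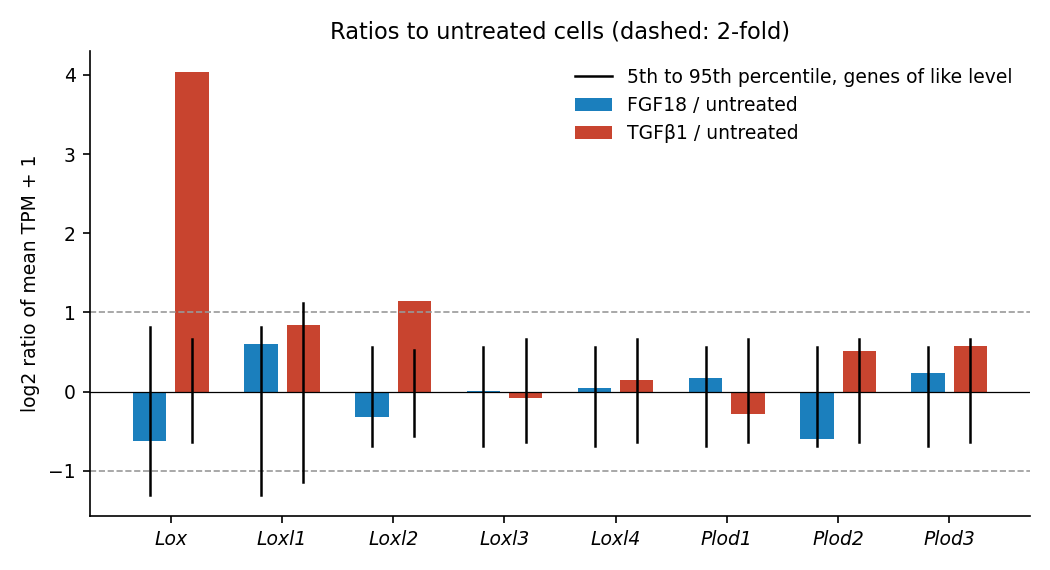
Log2 ratio of mean TPM + 1 to untreated cells for each member, with FGF18 (blue) and TGFβ1 (red). Black lines span the 5th to 95th percentile of all genes in the same band of mean level over both groups and are not errors of the members, and dashed lines mark a fold of 2. *Lox* (4.04) and *Loxl2* (1.14) with TGFβ1 stand above both.

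With FGF18, no member was higher or lower than in untreated HSCs by 2-fold. Of 20702 genes, 2.34% were higher by that much and 5.77% were lower. The members had a median log2 ratio of 0.027 and all those genes had -0.12. The largest differences were in *Lox*, *Loxl1* and *Plod2*.

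*Lox* had 4.73 TPM untreated and 2.71 TPM after FGF18, 1.75-fold lower. Its log2 ratio of -0.63 was common among genes of 1 to 10 TPM, where 21.1% were as far below untreated. *Loxl1* was at 4.07 and 6.68 TPM, 1.64-fold higher, with a log2 ratio of 0.60 that 8.00% of such genes reached. *Plod2* was at 45.3 and 29.6 TPM, 1.53-fold lower, with a log2 ratio of -0.60 that 7.70% of genes at 10 to 100 TPM reached. None of these 3 lay outside the 5th to 95th percentiles of genes at a like level, although with bands set by the untreated level *Loxl1* was just above the 95th, with 4.83% of genes as high.

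The other members stayed closer to untreated cells. *Loxl2* had 68.9 TPM untreated and 55.2 TPM with FGF18 (log2 ratio -0.32). *Plod1* was at 98.2 TPM (0.16) and *Plod3* at 43.4 TPM (0.23) with FGF18. *Loxl3*, at 24.5 TPM in either condition, and *Loxl4*, at 20.5 TPM with FGF18, had log2 ratios of 0.0030 and 0.051. In GRCm38, *Loxl1* lies on chromosome 9 from 58287738 to 58313186, *Loxl3* on chromosome 6 from 83034173 to 83052562 and *Loxl4* on chromosome 19 from 42593982 to 42612813. *Plod1* lies on chromosome 4 from 147909753 to 147936767, *Plod2* on chromosome 9 from 92542223 to 92608428 and *Plod3* on chromosome 5 from 136987019 to 136996648.

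Between the 2 stimuli, *Lox*, *Loxl2* and *Plod2* were higher with TGFβ1 than with FGF18 by at least 2-fold, and none was lower. This sets levels across 2 tables, whose untreated columns were the same for all 30595 symbols to within 1e-06 TPM. Of 20572 genes, 5.19% were higher with TGFβ1 by that much and 2.49% were lower. *Lox* was at 2.71 TPM with FGF18 and 93.2 TPM with TGFβ1, 34.4-fold apart. *Loxl2* was at 55.2 and 153 TPM, 2.77-fold apart. *Plod2* was at 29.6 and 64.9 TPM, 2.20-fold apart, although it was within 2-fold of untreated cells with either stimulus. *Plod1* ran in the opposite direction, at 98.2 TPM with FGF18 and 71.5 TPM with TGFβ1, a log2 ratio of -0.45. The means of *Lox*, *Loxl2* and *Plod2* lay below untreated after FGF18 and above it after TGFβ1, and that of *Plod1* the reverse. *Loxl1*, *Loxl4* and *Plod3* were higher with either stimulus. These directions count a difference of any size. Of all genes whose mean reached 1 TPM, 38.0% lay above untreated with FGF18 and 49.6% with TGFβ1. Between the stimuli, 63.1% were higher with TGFβ1. The share of all genes with each pair of directions was not computed.

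The make-up of each family was then compared, as each member's share of the family's summed TPM. In untreated cells *Loxl2* made up 56.5% of the lysyl oxidase sum, *Loxl3* 20.1%, *Loxl4* 16.2%, *Lox* 3.88% and *Loxl1* 3.34%. With TGFβ1 the share of *Lox* was 31.1% and that of *Loxl2* 51.1%, so these 2 genes held most of the sum. *Loxl3* and *Loxl4* had 7.71% and 7.32% there, at levels near those of untreated cells. With FGF18 the share of *Lox* was 2.47% and that of *Loxl1* 6.09%. Among the hydroxylases, *Plod1* made up 51.6% of the sum in untreated cells, 57.4% with FGF18 and 37.3% with TGFβ1. *Plod2* made up 26.7%, 17.3% and 33.8%. The ratio of *Plod2* to *Plod1* was 0.518 in untreated cells, 0.301 with FGF18 and 0.908 with TGFβ1. The level of the enzyme for chain ends was thus nearest to that of the enzyme for the helix with TGFβ1.

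**Figure D3:**
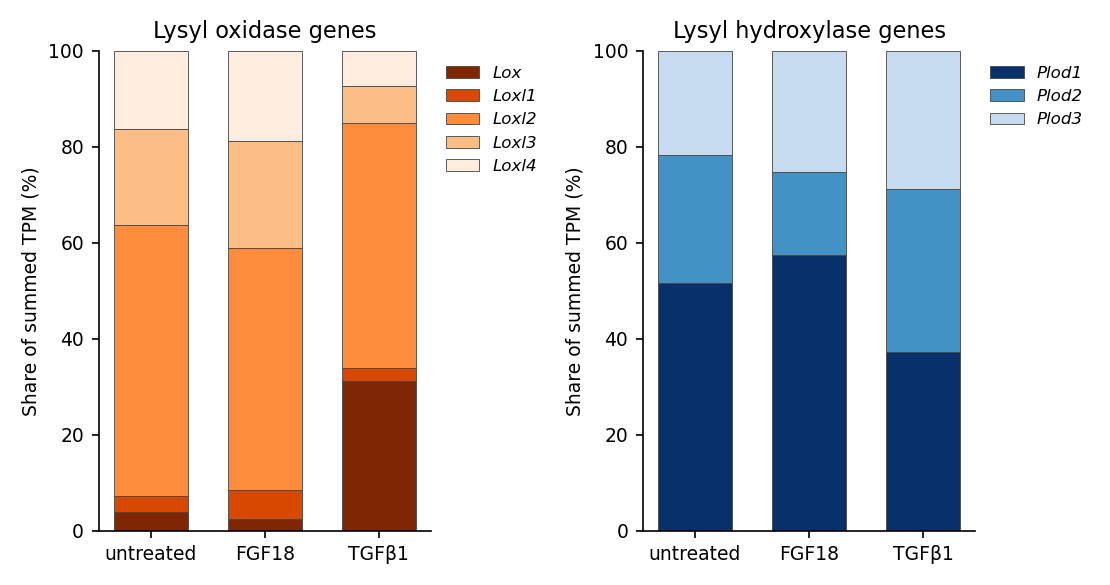
Share of each member in the summed TPM of the lysyl oxidase genes (left) and the lysyl hydroxylase genes (right), in percent, for untreated, FGF18-treated and TGFβ1-treated HSCs. *Lox* filled 3.88%, 2.47% and 31.1% of the lysyl oxidase sum, and *Plod2* filled 26.7%, 17.3% and 33.8% of the hydroxylase sum.

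The enzymes were next set against part of the collagen they act on. For this the fibrillar chains *Col1a1*, *Col1a2* and *Col3a1* were summed, a choice that, like the sums below, was made with the values known. The type IV chains *Col4a1* and *Col4a2*, which differed less between conditions, are not in the sum. The order of conditions against a sum that holds them was not computed. *Col3a1*, which encodes type III collagen, was at 893 TPM in untreated cells, 248 TPM with FGF18 and 3323 TPM with TGFβ1. *Col1a1*, a chain of type I collagen, was at 52.4, 27.7 and 380 TPM. The sum of the 3 chains was 3.05-fold lower with FGF18 and 3.92-fold higher with TGFβ1. The lysyl oxidase sum was 122 TPM in untreated cells, 110 TPM with FGF18 and 299 TPM with TGFβ1, 2.45-fold higher. The hydroxylase sum was 169, 171 and 192 TPM.

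Per 100 TPM of these 3 chains, the lysyl oxidases stood at 12.0 TPM in untreated cells, 33.0 TPM with FGF18 and 7.53 TPM with TGFβ1. The hydroxylases stood at 16.7, 51.4 and 4.82 TPM. TGFβ1-treated cells thus had the most cross-linking enzyme mRNA in all but the least per unit of mRNA of these 3 chains. *Lox* alone did not follow this order, at 0.467 TPM per 100 TPM of collagen in untreated cells, 0.815 TPM with FGF18 and 2.34 TPM with TGFβ1. Against type I collagen alone, an alternative added later, the lysyl oxidases stood at 101, 130 and 45.7 TPM and the hydroxylases at 140, 203 and 29.3 TPM, in the same order of conditions.

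**Figure D4:**
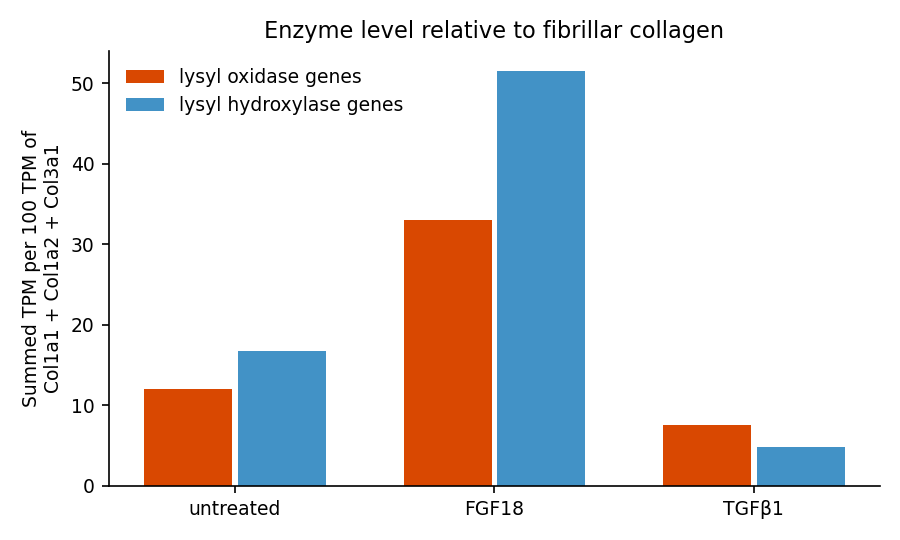
Summed TPM of the lysyl oxidase genes (orange) and of the lysyl hydroxylase genes (blue) per 100 TPM of *Col1a1*, *Col1a2* and *Col3a1* together. Bars are ratios of the authors' group means, with no error, and they are highest with FGF18 (33.0 and 51.4) and lowest with TGFβ1 (7.53 and 4.82).

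The genes that work before, beside and after these enzymes were described by 5 lists. Among 14 genes for propeptide removal and lysyl oxidase activation, *Bmp1* and *Postn* were higher by 2-fold with TGFβ1. Of all genes, 4.26% were higher by that much with TGFβ1 and 4.39% lower, and 2.34% and 5.77% with FGF18. *Bmp1*, the protease that releases active lysyl oxidase from its precursor and also trims procollagen, was at 9.62 TPM in untreated cells, 16.2 TPM with FGF18 and 43.7 TPM with TGFβ1, 4.54-fold above untreated. *Postn*, a matrix protein that helps that cleavage, was at 19.9, 8.56 and 64.7 TPM. *Fmod*, a collagen-binding proteoglycan chosen after its values were seen, was the 1 gene lower by 2-fold with TGFβ1. It was at 2.17, 0.337 and 0.138 TPM, low levels whose error is unknown. *Efemp2*, which brings lysyl oxidase to elastin, was at 189, 189 and 209 TPM. With FGF18, *Postn* and *Fmod* were lower by 2-fold. *Adamts14*, a procollagen protease named after its values were seen, was higher by 2-fold, at 3.98 TPM untreated and 9.44 TPM with FGF18. The list's median log2 ratio was 0.017 with FGF18 and 0.16 with TGFβ1, against -0.12 and -0.0035 over all genes.

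No gene of the lists for prolyl hydroxylation and for glycosylation and chaperones passed 2-fold with either stimulus. Of all genes, 8.11% did with FGF18 and 8.65% with TGFβ1. *Sparc*, of the latter list and named after its values were seen, came closest. It was at 1223 TPM untreated and 2351 TPM with TGFβ1, a log2 ratio of 0.94. With TGFβ1, the median log2 ratio was 0.36 for 10 genes of collagen prolyl hydroxylation and 0.59 for 10 of hydroxylysine glycosylation and procollagen chaperones, against -0.0035 over all genes. A mean above untreated, by any amount, was seen in 9 of 10 genes of each list and in 49.6% of all genes whose mean reached 1 TPM. *Colgalt2*, counted among the 9 of the latter list, did not reach that mean. It was at 0.231 TPM untreated and 0.240 TPM with TGFβ1, and was named after its values were seen. With FGF18 the medians of these lists were 0.062 and -0.048, against -0.12 over all genes. *Fkbp10*, a chaperone that supports the enzyme made from *Plod2*, was at 109 TPM in untreated cells, 149 TPM with FGF18 and 186 TPM with TGFβ1. *Colgalt1*, which adds galactose to hydroxylysine, was at 68.0, 89.4 and 107 TPM, and *Serpinh1*, the collagen chaperone HSP47, at 446, 525 and 674 TPM. The prolyl hydroxylase chains *P4ha1* and *P4ha2* had TGFβ1 log2 ratios of 0.24 and 0.45.

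Of 10 cross-linked substrate genes, 5 were higher by 2-fold with TGFβ1 and none was lower, and with FGF18 *Col3a1* was lower and none was higher. Of all genes, 4.26% were higher by that much with TGFβ1 and 4.39% lower, and 2.34% and 5.77% with FGF18. The list's median log2 ratio was 0.96 with TGFβ1 and -0.27 with FGF18, against -0.0035 and -0.12 over all genes. *Col1a2*, which encodes the other chain of type I collagen, was at 68.7, 56.6 and 276 TPM in untreated, FGF18-treated and TGFβ1-treated cells. *Col5a2* of type V collagen was at 57.1, 36.5 and 165 TPM. *Eln*, which encodes elastin, was at 6.32, 3.28 and 17.7 TPM. *Col4a1* and *Col4a2*, the type IV collagen chains, are added here with their values known. They were at 444, 401 and 449 TPM and at 145, 125 and 139 TPM.

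**Figure D5:**
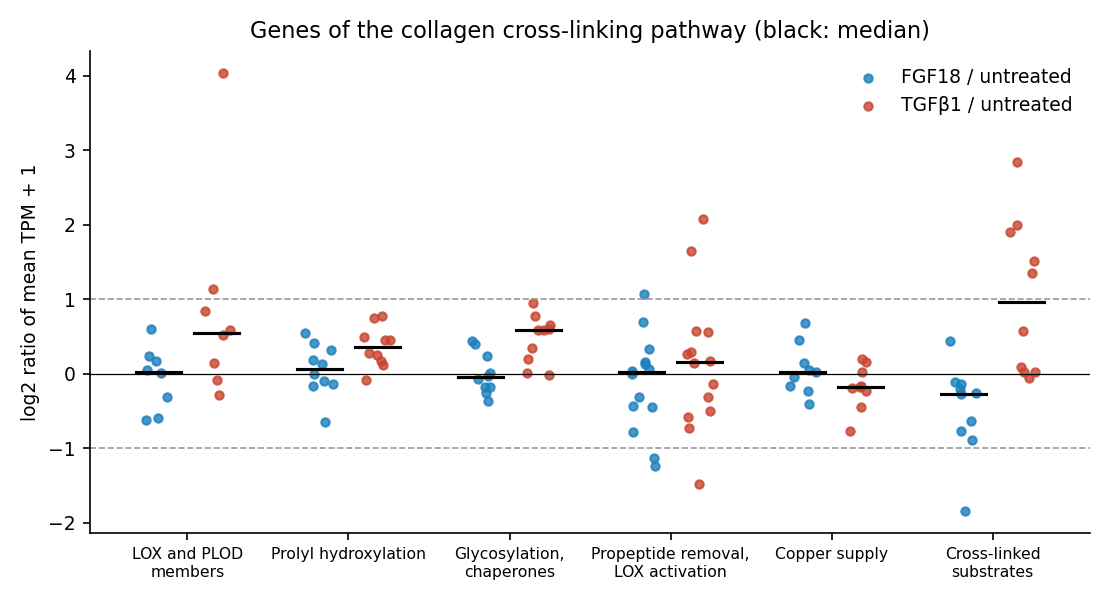
Log2 ratio of mean TPM + 1 to untreated cells for the 8 members and for each gene of the 5 pathway lists, with FGF18 (blue) and TGFβ1 (red). Black bars are medians and dashed lines mark a fold of 2. With TGFβ1 the medians were 0.55 for the members, 0.59 for glycosylation and chaperones and 0.96 for cross-linked substrates.

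Among 9429 genes whose mean over the 3 conditions reached 10 TPM, those whose pair of log2 ratios lay near that of *Lox* included *Adamtsl2*, *Wisp1*, *Pmepa1* and *Col1a1*, at Euclidean distances of 0.55, 0.85, 1.06 and 1.23. The likeness rests on 3 group means and 2 ratios that share the untreated group. *Adamtsl2*, *Wisp1* and *Pmepa1*, like *Lox*, were under 10 TPM untreated and with FGF18. They passed the filter of 10 TPM only through their TGFβ1 level. Genes as low in untreated cells without such a rise were left out beforehand, so part of the likeness was set in advance. *Adamtsl2*, a secreted glycoprotein of the matrix, was nearest, at 3.28 TPM in untreated cells, 1.98 TPM with FGF18 and 47.4 TPM with TGFβ1. *Wisp1*, a matricellular protein, was at 5.25, 3.37 and 56.3 TPM, and *Pmepa1*, which feeds back on TGFβ signaling, at 8.16, 6.52 and 74.3 TPM.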

How the data were processed

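Bulk RNA-seq libraries of HSCs were made with the SMART-Seq HT PLUS kit and sequenced in pairs. Reads were aligned by the authors to GRCm38 (also named mm10 in the submitters' processing notes) and processed with RaNA-seq, an online pipeline. Neither the aligner and counter nor the annotation and strand setting is given in the sources used here. As deposited, TPM values are the authors' means over the libraries of each group, in tables of 31447 and 31691 rows. Means hide a library that stands apart, and TPM moves every gene when a few abundant genes change.

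The group columns are headed A and B. Column A held the same values in both tables and was taken as untreated, the group common to both comparisons, and B as the stimulus of that table. No column of unknown sample was used. The authors' own comparison columns (log2 fold change, its standard error, statistic, p-value and adjusted p) were not used, so no test was run and no error is given. The study's methods state a target depth per sample, but the tables hold no read counts from which the precision of a value could be computed. Symbols listed more than once (106 and 104 rows) were left out.

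A gene counted as past 2-fold at an absolute log2((TPM + 1)/(TPM + 1)) of at least 1. The background was all genes whose mean over both groups reached 1 TPM. The fold step was run on simulated means with known folds and no noise, which checks the arithmetic only. The genes named were the 8 members, 10 fixed partners, up to 4 genes of each list past 2-fold whose mean reached 10 TPM, and the 5 genes nearest to *Lox*, of which 1 is not reported here. Single cell type markers were picked with their values known, and other exceptions are marked. Members and lists were chosen with earlier results of these data known. Alternatives were a pseudocount of 0.1 TPM, folds of 1.5 and 3, centring, a filter on level and other backgrounds. Python 3.11.15, numpy 2.4.6, pandas 2.3.3 and matplotlib 3.10.9 were used, with GENCODE M21 for positions and sequences.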

Additional observations from a re-analysis of the deposited data

How the results depend on the processing

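The counts of members past 2-fold depended on the fold chosen. At a fold of 1.5, 3 members passed with FGF18 (*Loxl1* higher, *Lox* and *Plod2* lower), 3 with TGFβ1 against untreated (*Lox*, *Loxl1* and *Loxl2*) and 3 against FGF18 (*Lox*, *Loxl2* and *Plod2*). At a fold of 3, 1 member, *Lox*, passed with TGFβ1 against untreated and 1, again *Lox*, against FGF18. The share of all genes past folds of 1.5 and 3 was not computed, so these counts have no background. A pseudocount of 0.1 TPM and centring on genes whose mean reached 10 TPM moved no count of members past 2-fold and no median by over 0.1. Leaving out members under that mean did not remove *Lox* from the TGFβ1 counts, since its TGFβ1 level carries it past the filter, so those counts say nothing of stability. Under the pseudocount and the centring, all 48 log2 ratios of single members kept their sign, and 5 moved by over 0.1, all of *Lox* or *Loxl1* under the smaller pseudocount. The TGFβ1 ratio of *Lox* was then 4.27. The share of all genes past 2-fold in either direction was 8.11% with FGF18 and 8.65% with TGFβ1, 2.62% and 3.83% among genes whose mean reached 10 TPM, and 13.9% and 13.8% with a pseudocount of 0.1 TPM. Between the stimuli it was 7.68%, 3.17% and 13.2%. No paired analysis was possible because the tables hold group means only, and for the same reason leaving out each replicate was not run. The tables hold no read counts, so the counting error of *Lox* and *Loxl1*, both under 10 TPM in untreated cells, was not computed.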

Other observations

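Copper is the metal of the lysyl oxidases, and 9 genes of copper uptake, transport, delivery, storage and use were listed. None passed 2-fold with either stimulus, where 8.11% of all genes did with FGF18 and 8.65% with TGFβ1. Their median log2 ratio was 0.022 with FGF18 and -0.18 with TGFβ1, against -0.12 and -0.0035 over all genes. *Atp7a*, the pump that loads copper into secreted enzymes and was named after its values were seen, was at 9.58 TPM in untreated cells, 9.22 TPM with FGF18 and 6.74 TPM with TGFβ1. *Slc31a2*, a copper transporter of internal membranes named likewise, was at 23.8, 20.1 and 13.5 TPM. *Mt2*, a metallothionein named likewise, was at 304, 488 and 309 TPM. *Slc31a2* and *Atp7a* had the lowest TGFβ1 log2 ratios of the list. With TGFβ1, 3 of the 9 genes lay above untreated and 6 below, by any amount, and 49.6% of all genes lay above. Among those above was *Atox1*, named likewise, at 371, 385 and 414 TPM.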
